A study of Mus musculus with 35 samples.

Results

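Cells carrying G-NHA9-21FGAA, a NUP98-HOXA9 fusion with 17 FG motifs, were compared with cells carrying full-length G-NHA9, which has 38. The comparison rests on 10 of the 35 RNA-seq libraries of the series, namely the 5 libraries of each of these 2 constructs, chosen by construct alone. G-NHA9 is spelled G-NHX9 on the sample labels. Both constructs were delivered by lentivirus into lin- HSPCs, blood stem and progenitor cells depleted of mature lineages, from the bone marrow of C57Bl/6 mice of both sexes, and both carry an mEGFP tag and the DNA-binding homeodomain of HOXA9. The labels give an age of 8 weeks for the donor mice, except for replicate 1 of G-NHA9, where it is 11 weeks. Transduced cells were sorted by flow cytometry and then grown for 1 week in methylcellulose with erythroid and myeloid growth factors and 10 ng/mL GM-CSF. The RNA therefore came from colonies of mixed maturity. The 5 libraries of cells with the empty vector, grown in the same way from mice aged 8 to 10 weeks, are given beside the results as the level without a fusion. The labels do not say whether the libraries of a construct came from separate mice or cultures. The p-values measure the spread between libraries only, estimated over all 35 libraries of the 7 conditions.

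NUP98 is a nucleoporin whose N-terminal part is disordered and holds repeats of phenylalanine and glycine, the FG motifs, through which NUP98 molecules bind each other. In leukemia, translocations join this part to the DNA-binding part of another protein, and HOXA9, a homeodomain transcription factor, is a frequent partner. *Hox* cluster genes are active in hematopoietic stem cells and fall silent as blood cells mature. HOX proteins bind DNA with cofactors of the PBX and MEIS families, and *Hoxa9* with *Meis1* is a classical leukemogenic pair. In the 21FGAA construct a part of the FG motifs is exchanged for alanine pairs, and the others are kept. The comparison addresses how the transcript levels of cells with the same DNA-binding part differ when FG motif valence is reduced.

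Total counts were between 34641407 and 66910028 per library, and 17166 of 49671 genes passed the filter on low counts. Levels are given as CPM, counts scaled to the library total after TMM scaling, with the SD over 5 libraries, and a gene was called under 0.05 after Benjamini-Hochberg adjustment of the p-values of edgeR. The construct separated the 10 libraries along the first principal component (69.8% of the variance), with G-NHA9 libraries from -32.2 to -25.8 and G-NHA9-21FGAA libraries from 23.6 to 33.4. The second component (13.3%) set replicates 4 and 5 of both constructs, at -17.5 to -11.9, apart from replicates 1 to 3, at 1.69 to 17.2. Several named genes differed between these replicates, and the values by replicate are given for some of them. The ratio of Y-linked to *Xist* transcripts showed mixed sexes in every library, with log2 ratios from -5.28 to -2.79 for G-NHA9 and from -5.95 to -3.35 for G-NHA9-21FGAA. None of the 5 sex-linked transcripts was called.

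Of the 17166 genes tested, 1529 (8.91%) were higher and 1431 (8.34%) lower in G-NHA9-21FGAA cells, 2960 (17.2%) in all. With the replicate number as a block, 3936 were called. The 5 libraries of one construct did not overlap with the other 5 for 1096 genes (6.38%) that were higher and 881 (5.13%) that were lower by value. Of the called genes, 820 rose and 528 fell by more than 2-fold, and 262 rose and 181 fell by more than 4-fold. The median log2 fold change over all tested genes was -0.02. For 8088 genes (47.1%), the 95% interval of the difference lay within 1.5-fold in either direction. The genes with the lowest fold changes were led by *Hox* cluster genes, and those with the highest by mast cell proteases.

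**Figure D1:**
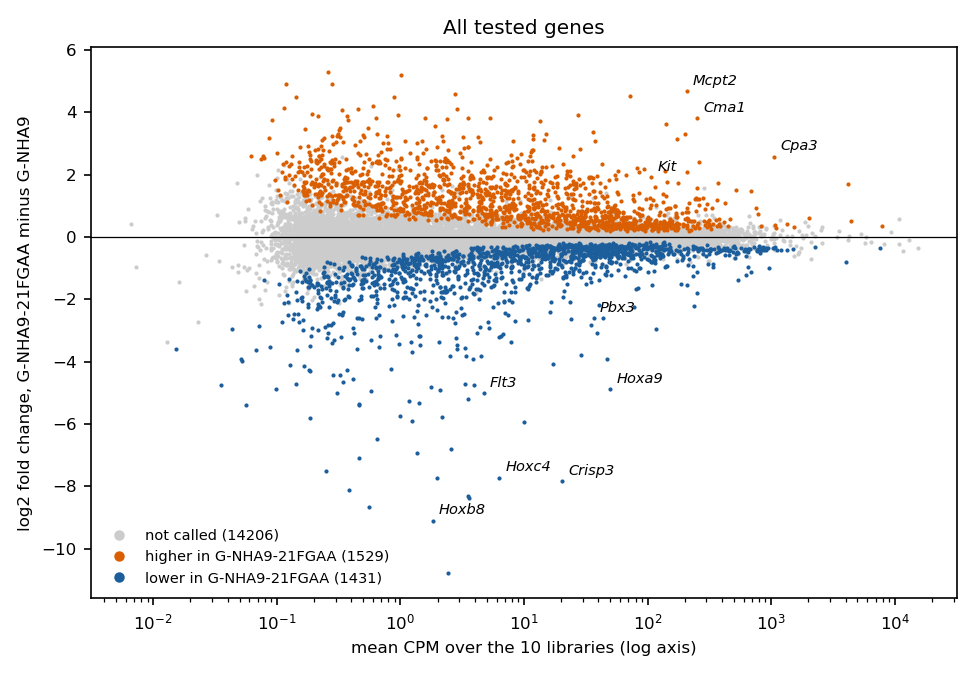
Log2 fold change of G-NHA9-21FGAA over G-NHA9 cells against mean CPM over the 10 libraries (log axis), 1 point per tested gene, with 1529 called genes above and 1431 below the line. *Hox* genes, *Crisp3* and *Flt3* lie at the bottom, and mast cell genes such as *Mcpt2*, *Cma1* and *Cpa3* at the top right.

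Every tested *Hox* cluster gene was lower in G-NHA9-21FGAA cells. Of 39 *Hox* genes in the table, 21 passed the filter, and all 21 were called lower, against 8.34% of all genes. The filter was run over all 7 conditions. Genes at 3 counts or fewer in every G-NHA9-21FGAA library, such as *Hoxb8* and *Hoxc5*, passed it only through other conditions. For such genes a fall was favoured in advance, so the comparison with 8.34% is a description only. The lowest log2 fold change was -9.10 (*Hoxb8*), the median was -3.81, and 20 of the 21 had no overlap between the constructs. Together they summed to 15.7 ± 4.54 CPM (SD, n = 5) in G-NHA9-21FGAA cells, 220.5 ± 12.4 CPM in G-NHA9 cells and 8.53 ± 1.11 CPM in empty vector cells. When any single library was left out, 20 or 21 of the genes were called lower.

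**Figure D2:**
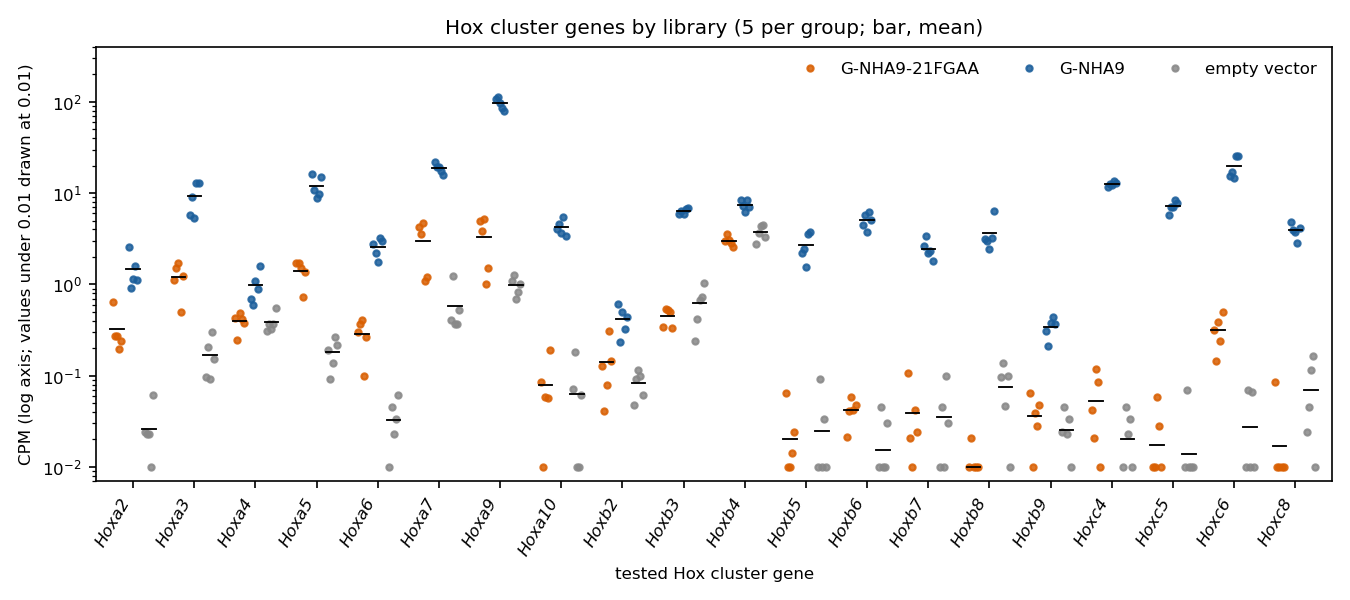
CPM (log axis) of 20 tested *Hox* cluster genes in each library of G-NHA9-21FGAA, G-NHA9 and empty vector cells, with a bar at the mean of 5 libraries. All G-NHA9 libraries lie above all G-NHA9-21FGAA libraries for every gene shown but *Hoxb2*.

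In the *Hoxa* cluster (chr6:52155590-52260880, GRCm38), 9 genes were tested. *Hoxa9* had the highest level. It was at 4.91, 3.83, 5.15, 1.00 and 1.53 CPM in G-NHA9-21FGAA replicates 1 to 5 and at 108, 113, 96.6, 85.8 and 79.3 CPM in those of G-NHA9. The groups were far apart, although replicates 4 and 5 of G-NHA9-21FGAA were lower than the other three. The log2 fold change was -4.88 ± 0.37 (SE; edgeR adjusted p = 6.7e-12), and empty vector cells were at 0.975 ± 0.221 CPM. Both constructs contain a HOXA9 part, and whether transcripts of the construct were counted on *Hoxa9* was not tested. *Nup98*, the other gene in the fusion, was at 164 ± 24.4 CPM in G-NHA9-21FGAA cells and 171 ± 27.0 CPM in G-NHA9 cells (edgeR adjusted p = 0.80; 95% interval of the log2 difference, -0.31 to 0.18).

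*Hoxa7* followed, with 2.99 ± 1.72 CPM against 18.8 ± 2.21 CPM. It too was lower in replicates 4 and 5 of G-NHA9-21FGAA (1.10 and 1.22 CPM) than in replicates 1 to 3 (3.58 to 4.76 CPM). *Hoxa5*, which overlaps *Hoxa3* on the same strand, was at 1.41 ± 0.403 CPM against 12.1 ± 3.28 CPM, and *Hoxa3* at 1.22 ± 0.462 CPM against 9.25 ± 3.70 CPM. Reads of such overlapping genes may be divided between them by the counting. *Hoxa10* was the *Hoxa* gene with the lowest fold change, at 0.0782 ± 0.0702 CPM against 4.24 ± 0.845 CPM (log2 fold change, -5.78 ± 0.50; edgeR adjusted p = 1.2e-10). *Hoxa2*, *Hoxa4* and *Hoxa6* were at 0.973 to 2.59 CPM in G-NHA9 cells and at 0.289 to 0.394 CPM in G-NHA9-21FGAA cells.

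The *Hoxc* cluster (chr15:102921103-103036852) was the most strongly divided. *Hoxc4* was at 0.0425, 0.0207, 0.117, 0.0845 and 0 CPM in the 5 G-NHA9-21FGAA libraries and at 11.8, 12.5, 12.3, 13.5 and 12.8 CPM in the 5 G-NHA9 libraries. The G-NHA9 libraries lay close together, and those of G-NHA9-21FGAA were near the level of 3 counts (0.0448 to 0.0791 CPM). The log2 fold change was -7.72 ± 0.41 (edgeR adjusted p = 2.5e-15). *Hoxc6* was at 0.319 ± 0.137 CPM against 19.6 ± 5.35 CPM (log2 fold change, -5.95 ± 0.43; edgeR adjusted p = 2.8e-12). *Hoxc5*, whose annotation overlaps *Hoxc6* and *Hoxc8*, had 5 counts in all G-NHA9-21FGAA libraries together and 1422 in those of G-NHA9, a 375-fold ratio of pooled rates (95% exact interval for counting error, 160 to 1157). *Hoxc8* was at 0.0170 ± 0.0380 CPM against 3.91 ± 0.720 CPM, with counts in 1 of the 5 G-NHA9-21FGAA libraries.

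In the *Hoxb* cluster (chr11:96194316-96368256), the genes fell by unequal amounts. *Hoxb8* had 1 count in all G-NHA9-21FGAA libraries together and was at 3.17, 2.96, 2.46, 3.19 and 6.42 CPM in G-NHA9 replicates 1 to 5, where replicate 5 was the highest. The ratio of pooled rates was 943-fold, with a lower end of 169 in the 95% exact interval. *Hoxb5* (142-fold; interval, 60.3 to 437.9) and *Hoxb6* (121-fold; interval, 67.4 to 243.5) were also at 3 counts or fewer in every G-NHA9-21FGAA library. By contrast *Hoxb4*, used to expand stem cells in culture, was at 3.02 ± 0.375 CPM against 7.43 ± 0.911 CPM, a log2 fold change of -1.30 ± 0.18 (edgeR adjusted p = 1.9e-06), and empty vector cells were at 3.73 CPM. *Hoxb3* was at 0.447 ± 0.102 CPM against 6.34 ± 0.415 CPM. With the 5 *Hox* genes at 3 counts or fewer set to the end of their interval nearest to no change, the median log2 fold change over the 21 genes was -3.81. None of the 5 crossed the median, so this value cannot show how low counts affect it.

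Against the empty vector, which shares libraries with the comparison above, 7 of the 21 *Hox* genes were higher in G-NHA9-21FGAA cells (14.7% of all genes were) and all 21 in G-NHA9 cells (16.9% of all genes were). The limit set by the filter holds for these counts too. The 7 were *Hoxc6* and, in the *Hoxa* cluster, *Hoxa9*, *Hoxa7*, *Hoxa6*, *Hoxa5*, *Hoxa3* and *Hoxa2*. For *Hoxa9* the log2 difference from the empty vector was 1.74 with G-NHA9-21FGAA and 6.62 with G-NHA9. For *Hoxa5* it was 2.98 and 6.09. *Hoxc4* (1.33, edgeR adjusted p = 0.18) and *Hoxb3* (-0.43, edgeR adjusted p = 0.19) were not called in G-NHA9-21FGAA cells. *Hoxb8* was called lower than in the empty vector on 1 count.

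Neighbouring genes were counted too. Of 6 other tested genes inside the *Hoxa* and *Hoxb* spans, 3 were lower and none higher (8.34% and 8.91% of all genes). These are non-coding and were named after their values were seen. *Hoxb5os*, transcribed opposite to *Hoxb5* and *Hoxb6*, was at 0.184 ± 0.0535 CPM against 6.87 ± 1.91 CPM (log2 fold change, -5.20 ± 0.30; edgeR adjusted p = 1.6e-14). *Hoxaas3* (log2 fold change, -1.42) and *Hotairm1* (-0.83), opposite to *Hoxa* genes, were lower by less. Strand use in the counting is not given in the sources used here, so that reads from a gene and its antisense partner cannot be told apart. Of 24 tested genes within 300 kb outside the 4 clusters, 1 was called (17.2% of all genes were). It was *Skap2* beside the *Hoxa* cluster, a signalling adaptor, at 152 ± 19.3 CPM against 233 ± 44.1 CPM (log2 fold change, -0.61 ± 0.13; edgeR adjusted p = 5.3e-04).

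The 250 bases before the start of 3 *Hox* genes are shown, taken from the 4 *Hox* windows that hold the letters TTTAT described next. They are from RefSeq (GRCm38.p6), written 5′ to 3′ on the strand of the gene, and capitals mark TTTAT or its complement ATAAA, the core preferred by HOXA9-like homeodomains. *Hoxb8* is at chr11:96281655-96281904 (plus strand), *Hoxa7* at chr6:52218574-52218823 (minus strand) and *Hoxa10* at chr6:52240855-52241104 (minus strand).
Hoxb8: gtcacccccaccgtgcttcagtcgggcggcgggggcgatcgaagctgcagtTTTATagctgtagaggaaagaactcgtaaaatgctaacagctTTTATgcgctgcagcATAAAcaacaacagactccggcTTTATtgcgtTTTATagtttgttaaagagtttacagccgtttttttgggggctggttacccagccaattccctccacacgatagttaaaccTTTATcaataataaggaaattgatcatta
Hoxa7: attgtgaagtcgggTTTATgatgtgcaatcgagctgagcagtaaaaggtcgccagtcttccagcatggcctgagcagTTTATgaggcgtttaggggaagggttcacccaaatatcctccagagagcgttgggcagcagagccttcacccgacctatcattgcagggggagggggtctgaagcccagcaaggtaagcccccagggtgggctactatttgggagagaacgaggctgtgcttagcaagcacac
Hoxa10: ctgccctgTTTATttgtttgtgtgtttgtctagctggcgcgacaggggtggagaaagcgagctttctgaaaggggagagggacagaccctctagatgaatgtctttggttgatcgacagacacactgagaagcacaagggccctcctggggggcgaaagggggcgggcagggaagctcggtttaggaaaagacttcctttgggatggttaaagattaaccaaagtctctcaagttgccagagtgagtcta
The window of *Hoxb8* holds 6 matches, that of *Hoxa7* 2 and that of *Hoxa10* 1. Of the 21 tested *Hox* genes, 10 had a promoter in the table and 4 of these held the letters, against 37.3% of all 32851 promoters. Of promoters of genes called higher, called lower and not called, 29.5%, 27.2% and 23.9% held them. A gene with several promoters was counted if any of them held the letters, here and below. The letters can overlap a TATA box. A match is a description of the sequence.

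Cofactors of HOX proteins moved in both directions. Of 10 tested genes of the TALE homeobox group, 2 were higher, 2 lower and 6 not called. Of all genes, 8.91% were higher and 8.34% lower. The median log2 fold change of the group was -0.23. *Pbx3* was at 10.1, 8.92, 8.22, 11.5 and 12.9 CPM in G-NHA9-21FGAA libraries and at 65.9, 60.7, 52.4, 63.4 and 73.9 CPM in G-NHA9 libraries (log2 fold change, -2.61 ± 0.14; edgeR adjusted p = 5.1e-15). The groups did not overlap. *Pbx2*, a further member, was at 52.4 ± 11.6 CPM against 54.9 ± 5.29 CPM (edgeR adjusted p = 0.79; 95% interval, -0.31 to 0.17).

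*Meis1*, the partner of *Hoxa9* in leukemia, did not pass the test. It was at 31.7 ± 4.93 CPM in G-NHA9-21FGAA cells and 36.3 ± 2.48 CPM in G-NHA9 cells (log2 fold change, -0.20; edgeR adjusted p = 0.54), and the 95% interval ran from -0.55 to 0.16. Empty vector cells were at 13.7 ± 2.61 CPM, and *Meis1* was above them with both constructs, by 1.21 (edgeR adjusted p = 1.1e-05) and 1.41 (edgeR adjusted p = 2.2e-07) on the log2 scale. *Tgif2*, a repressor of the same family, was at 1.95 ± 0.985 CPM against 3.88 ± 1.03 CPM, with overlapping groups (edgeR adjusted p = 0.0092), a call that was lost in the fit to the 10 libraries alone (edgeR adjusted p = 0.051) and after thinning to equal depth (edgeR adjusted p = 0.058).

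Of 24 transcription factors of stem cells and leukemia, 9 fell and 2 rose (8.34% and 8.91% of all genes). Their median log2 fold change was -0.44. *Eya1*, a phosphatase and coactivator of homeodomain proteins, changed most, from 32.2 ± 7.38 CPM in G-NHA9 cells to 1.90 ± 0.602 CPM (log2 fold change, -4.08 ± 0.26; edgeR adjusted p = 1.2e-13), and empty vector cells were at 2.52 CPM. *Lmo2*, a bridging factor of stem cell complexes, was at 86.5 ± 6.93 CPM against 145 ± 18.8 CPM, and *Sox4* at 8.50 ± 1.79 CPM against 14.7 ± 3.49 CPM. The 2 that rose, *Tal1* (138 ± 23.4 CPM against 72.7 ± 8.45 CPM) and *Gata2* (159 ± 52.3 CPM against 77.3 ± 22.9 CPM), are also factors of the mast, erythroid and megakaryocyte lineages.

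Surface markers of stem and progenitor cells moved in both directions, 5 of 17 higher and 6 lower (8.91% and 8.34% of all genes). *Flt3*, the receptor of early myeloid and lymphoid progenitors, was at 0.298, 0.311, 0.254, 0.225 and 0.334 CPM in G-NHA9-21FGAA libraries and at 10.2, 9.20, 10.3, 8.75 and 7.18 CPM in G-NHA9 libraries. The log2 fold change was -5.01 ± 0.30 (edgeR adjusted p = 4.3e-14), and empty vector cells were at 0.187 CPM. *Kit*, the stem cell factor receptor, which mast cells retain, was at 127, 136, 142, 219 and 226 CPM against 37.4, 30.3, 31.8, 62.5 and 63.7 CPM. Replicates 4 and 5 were the highest of both constructs, and the constructs did not overlap (log2 fold change, 1.91 ± 0.26; edgeR adjusted p = 1.5e-06).

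*Thy1*, an antigen of stem and lymphoid cells, was at 27.1 ± 12.8 CPM against 209 ± 64.2 CPM (log2 fold change, -2.95 ± 0.38). *Ly6a*, which encodes SCA-1, was at 97.0 ± 18.5 CPM against 275 ± 35.3 CPM (-1.50), and *Cd27* at 0.356 ± 0.219 CPM against 2.43 ± 0.367 CPM (-2.78). On the other side, *Tek*, the angiopoietin receptor, was at 3.53 ± 1.93 CPM against 0.297 ± 0.154 CPM (3.57) and *Slamf1*, a marker of stem cells, at 26.1 ± 7.84 CPM against 7.76 ± 5.52 CPM (1.75). *Cd34* did not pass the test, with 206 ± 27.7 CPM against 220 ± 12.9 CPM (edgeR adjusted p = 0.81; 95% interval, -0.46 to 0.27), and was at 36.9 ± 9.25 CPM in empty vector cells. Of 11 cytokine-induced STAT5 target genes, *Il2ra* (log2 fold change, -3.07) and *Socs2* (-1.09) fell, against 8.34% of all genes. The other 9 were not called.

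**Figure D3:**
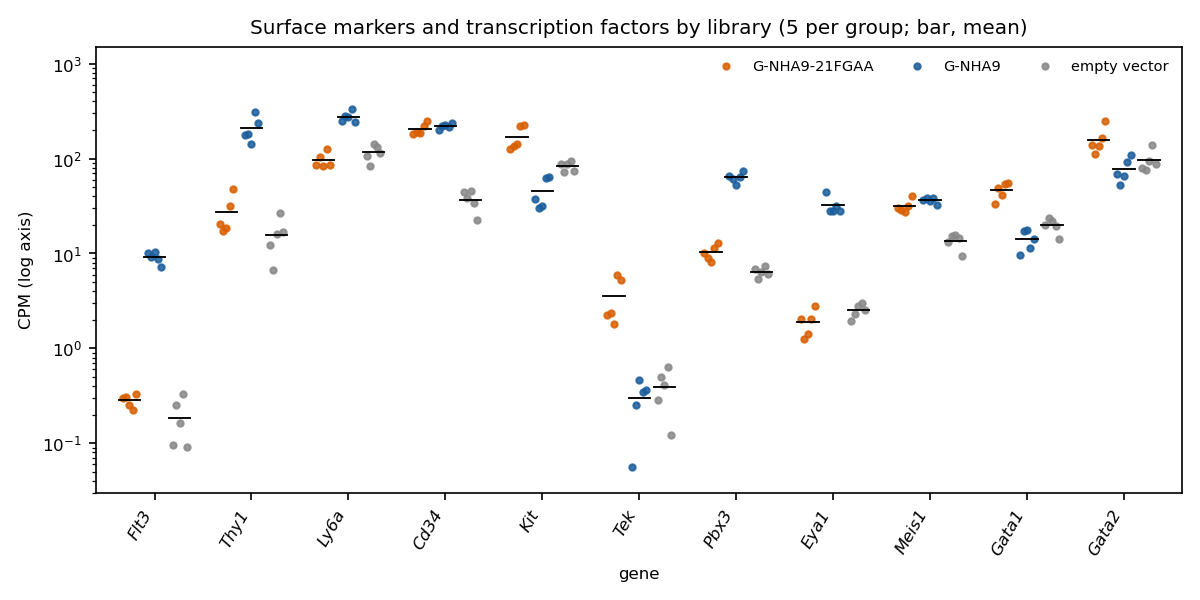
CPM (log axis) of 11 surface markers and transcription factors in each library of G-NHA9-21FGAA, G-NHA9 and empty vector cells, with a bar at the mean of 5 libraries. *Flt3*, *Thy1*, *Ly6a*, *Pbx3* and *Eya1* are lower and *Kit*, *Tek*, *Gata1* and *Gata2* higher in every G-NHA9-21FGAA library, whereas *Cd34* and *Meis1* overlap.

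Genes of mast cells and basophils rose as a group. Of 14 tested, 12 were higher and none lower, against 8.91% of all genes called higher, and the median log2 fold change was 2.86. The 14 summed to 4389 to 6363 CPM in G-NHA9-21FGAA libraries, 822.7 to 1166 CPM in G-NHA9 libraries and 3080 ± 969 CPM in empty vector cells. In bulk RNA, fewer cells of a type and less RNA per cell cannot be told apart, here and for the other lineages. The 2 that were not called were *Hdc* (317 ± 158 CPM against 196 ± 21.4 CPM, edgeR adjusted p = 0.11; without replicate 2 of G-NHA9-21FGAA, edgeR adjusted p = 0.037) and *Prss34* (88.0 ± 42.4 CPM against 63.5 ± 22.8 CPM, edgeR adjusted p = 0.41), the former an enzyme of histamine synthesis and the latter a basophil protease.

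The chymase genes on chromosome 14 changed most. *Mcpt2* was at 303, 506, 298, 541 and 344 CPM in G-NHA9-21FGAA libraries and at 10.2, 17.6, 8.09, 15.9 and 25.4 CPM in G-NHA9 libraries (log2 fold change, 4.69 ± 0.33; edgeR adjusted p = 1.9e-12). *Cma1* was at 470 ± 106 CPM against 33.7 ± 11.4 CPM (3.80 ± 0.36), and *Mcpt4* at 51.1 ± 29.3 CPM against 3.42 ± 0.502 CPM (3.90 ± 0.48). *Mcpt1* was at 30.5, 69.5, 35, 378 and 185 CPM against 1.81, 2.64, 1.71, 11.3 and 12.8 CPM, with replicates 4 and 5 highest in both constructs (4.53 ± 0.68; edgeR adjusted p = 7.0e-06). *Mcpt4* had the reverse order, with 24.5 and 15.8 CPM in replicates 4 and 5 of G-NHA9-21FGAA and 63.8 to 83.2 CPM in replicates 1 to 3. Reads of such similar paralogs may be shared between them. *Mcpt8*, a basophil protease, rose by less (1.26 ± 0.30).

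*Cpa3*, the carboxypeptidase of mast cell granules and the most abundant gene of the list, was at 1740, 1581, 1857, 2290 and 1534 CPM against 335, 320, 321, 228 and 303 CPM (log2 fold change, 2.58 ± 0.26; edgeR adjusted p = 3.4e-09). The tryptase gene *Tpsb2* was at 311 ± 61.1 CPM against 35.1 ± 3.46 CPM (3.15 ± 0.38). Both specific chains of the high-affinity IgE receptor rose, *Fcer1a* from 21.0 ± 2.84 to 262 ± 50.9 CPM (3.64 ± 0.28) and *Ms4a2* from 52.3 ± 10.0 to 227 ± 48.1 CPM (2.12 ± 0.27). The IL-33 receptor *Il1rl1* was at 441 ± 101 CPM against 83.8 ± 12.3 CPM (2.40 ± 0.25). Against the empty vector, whose libraries both constructs share as the reference, 10 of the 14 genes were lower in G-NHA9 cells (15.2% of all genes were) and none higher, and 6 were higher in G-NHA9-21FGAA cells (14.7% of all genes were) and none lower. G-NHA9 cells were lower in *Cma1* (-3.56), *Tpsb2* (-3.36), *Fcer1a* (-2.67) and *Cpa3* (-1.78). In G-NHA9-21FGAA cells the same 4 genes were at 0.24 (edgeR adjusted p = 0.63), -0.21 (edgeR adjusted p = 0.70), 0.97 (edgeR adjusted p = 0.0048) and 0.80 (edgeR adjusted p = 0.014). *Mcpt1* was at 3.60 with G-NHA9-21FGAA (edgeR adjusted p = 1.4e-04) and at -0.93 with G-NHA9 (edgeR adjusted p = 0.27), and *Mcpt2* at 1.46 (edgeR adjusted p = 3.7e-04) and -3.23 (edgeR adjusted p = 9.9e-10).

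Promoters of 3 of these genes are shown, chosen because they hold AGATAA, the site of GATA factors. Whether GATA factors act on these genes was not tested. The windows are again the 250 bases before the RefSeq start, 5′ to 3′ on the strand of the gene, at chr19:11623720-11623969 (*Ms4a2*), chr3:20242182-20242431 (*Cpa3*) and chr1:173227230-173227479 (*Fcer1a*), all on the minus strand. Capitals mark AGATAA or its complement TTATCT.
Ms4a2: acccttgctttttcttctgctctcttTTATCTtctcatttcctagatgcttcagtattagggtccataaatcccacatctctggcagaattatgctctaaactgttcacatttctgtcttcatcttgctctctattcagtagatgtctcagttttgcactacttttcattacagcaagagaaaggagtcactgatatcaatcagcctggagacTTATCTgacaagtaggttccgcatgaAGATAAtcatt
Cpa3: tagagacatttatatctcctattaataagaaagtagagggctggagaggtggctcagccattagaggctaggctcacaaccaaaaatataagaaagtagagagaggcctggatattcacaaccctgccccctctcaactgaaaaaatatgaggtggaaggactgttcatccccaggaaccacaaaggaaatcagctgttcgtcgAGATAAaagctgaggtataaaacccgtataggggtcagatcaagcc
Fcer1a: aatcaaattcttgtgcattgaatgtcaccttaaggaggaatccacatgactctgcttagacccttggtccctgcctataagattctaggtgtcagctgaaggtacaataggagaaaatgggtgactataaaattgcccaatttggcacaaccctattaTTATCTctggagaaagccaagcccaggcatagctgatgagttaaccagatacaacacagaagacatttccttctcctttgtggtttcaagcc
The letters occur 3 times before *Ms4a2* and 1 time each before *Cpa3* and *Fcer1a*. They were present in 6 of the 11 mast cell and basophil genes with a promoter in the table, 7 of 20 erythroid, 2 of 14 megakaryocyte and 2 of 8 eosinophil genes. Of all promoters, 9.99% held them, and of promoters of genes called higher, called lower and not called, 9.76%, 5.79% and 6.09%. A match does not show that a factor is bound.

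Megakaryocyte and platelet genes were higher in 16 of 17 cases, against 8.91% of all genes, with a median log2 fold change of 1.70 and none lower. *Pf4*, a platelet chemokine, was at 447, 864, 697, 445 and 373 CPM against 92.4, 290, 286, 100.0 and 91.2 CPM, highest in replicates 2 and 3 of both constructs (log2 fold change, 1.72 ± 0.36; edgeR adjusted p = 7.2e-04). The integrin genes of the fibrinogen receptor rose together, *Itga2b* from 165 ± 61.3 to 393 ± 84.7 CPM and *Itgb3* from 272 ± 84.9 to 580 ± 122 CPM. *Tubb1*, the tubulin of platelets, was at 19.9 ± 9.91 CPM against 3.01 ± 2.07 CPM (2.72 ± 0.43), and *Selp*, the P-selectin of platelet granules, at 23.3 ± 4.33 CPM against 4.90 ± 2.28 CPM (2.25 ± 0.39). Those of the von Willebrand factor axis, *Vwf* (352 ± 76.8 CPM against 150 ± 31.1 CPM) and its receptor chains *Gp1ba* (2.07 ± 0.60) and *Gp5* (1.70 ± 0.32), rose as well. *Plek*, which other leukocytes also express, was not called (0.35, edgeR adjusted p = 0.091), but was with the replicate number as a block (0.35, edgeR adjusted p = 0.0048), without replicate 1 of G-NHA9 (edgeR adjusted p = 0.046) and without replicate 5 of G-NHA9-21FGAA (edgeR adjusted p = 0.013). The list summed to 3607 ± 836 CPM against 1845 ± 545 CPM, and to 2879 ± 375 CPM in empty vector cells.

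Erythroid genes were higher in 22 of 27 cases, against 8.91% of all genes, and lower in 1, with a median log2 fold change of 1.41. The list summed to 1629 ± 750 CPM against 713.1 ± 230 CPM, and to 689.4 ± 254 CPM in empty vector cells. Relative to the empty vector, 20 of the 27 were higher in G-NHA9-21FGAA cells (14.7% of all genes were) and none lower. In G-NHA9 cells 2 were higher and 1 lower (16.9% and 15.2% of all genes). For 8 genes the groups did not overlap, against 6.38% of all genes. Replicate 4 of G-NHA9-21FGAA had the highest sum (the range over the 5 libraries was 874.7 to 2660 CPM, against 428.9 to 1068 CPM in G-NHA9 cells), and without it 13 genes were higher. *Gata1*, the erythroid, megakaryocyte and mast cell factor, was at 33.6, 48.9, 40.9, 53.7 and 55.8 CPM against 9.56, 17.3, 17.7, 11.5 and 14.3 CPM, with no overlap (log2 fold change, 1.73 ± 0.22; edgeR adjusted p = 5.1e-07). *Klf1*, the erythroid Krüppel-like factor, was at 14.4 ± 4.85 CPM against 5.83 ± 2.34 CPM (1.31 ± 0.36), and the erythropoietin receptor *Epor* at 7.52 ± 1.32 CPM against 2.83 ± 1.05 CPM (1.40 ± 0.25).

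The adult β-globin gene *Hbb-bs* was at 152, 417, 205, 847 and 543 CPM against 74.8, 149, 134, 174 and 194 CPM. The groups overlapped and it was not called (log2 fold change, 1.58 ± 0.58; edgeR adjusted p = 0.056), but it was with the replicate number as a block (edgeR adjusted p = 0.041) and without replicate 1 (edgeR adjusted p = 0.032) or replicate 3 of G-NHA9-21FGAA (edgeR adjusted p = 0.040). *Hbb-bt* (1.11, edgeR adjusted p = 0.013) and the anion exchanger *Slc4a1* (1.91, edgeR adjusted p = 0.014) were called, but not without replicate 4 of G-NHA9-21FGAA (edgeR adjusted p = 0.071 and 0.065). Of 9 heme biosynthesis enzymes, 5 rose (8.91% of all genes did), and 2 were called higher without that library. *Cpox* rose with no overlap (84.6 ± 18.7 CPM against 37.8 ± 9.77 CPM). Of 11 erythroid and megakaryocyte transcription factors, 6 rose (8.91% of all genes did), including *Gfi1b* (17.7 ± 3.91 CPM against 8.34 ± 1.54 CPM), and *Lmo2* fell.

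Eosinophil genes were higher in 7 of 10 cases, against 8.91% of all genes, with a median log2 fold change of 1.38 and none lower. *Prg2*, the major basic protein, was at 1013, 1395, 1001, 860 and 841 CPM against 560, 546, 247, 129 and 347 CPM (log2 fold change, 1.48 ± 0.40; edgeR adjusted p = 0.0073), and *Prg3* at 59.9 ± 7.81 CPM against 22.0 ± 9.51 CPM (1.45 ± 0.37). *Epx*, the eosinophil peroxidase, was at 505 ± 62.6 CPM against 222 ± 96.6 CPM (edgeR adjusted p = 0.049), a call that was lost in the fits without replicate 1, 3 or 4 of G-NHA9 or without any single library of G-NHA9-21FGAA (edgeR adjusted p from 0.056 to 0.13), with DESeq2 (adjusted p = 0.051), without TMM scaling (edgeR adjusted p = 0.054) and with the sex-linked covariate (edgeR adjusted p = 0.051). The IL-5 receptor *Il5ra* was at 2.33 ± 0.463 CPM against 0.406 ± 0.241 CPM (2.52 ± 0.37), and *Ear2* at 107 ± 43.3 CPM against 27.1 ± 11.9 CPM (1.98 ± 0.27). *Siglecf* differed by less (0.46 ± 0.14). The list summed to 1897 ± 378 CPM against 722.2 ± 330 CPM, and to 1656 ± 251 CPM in empty vector cells.

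**Figure D4:**
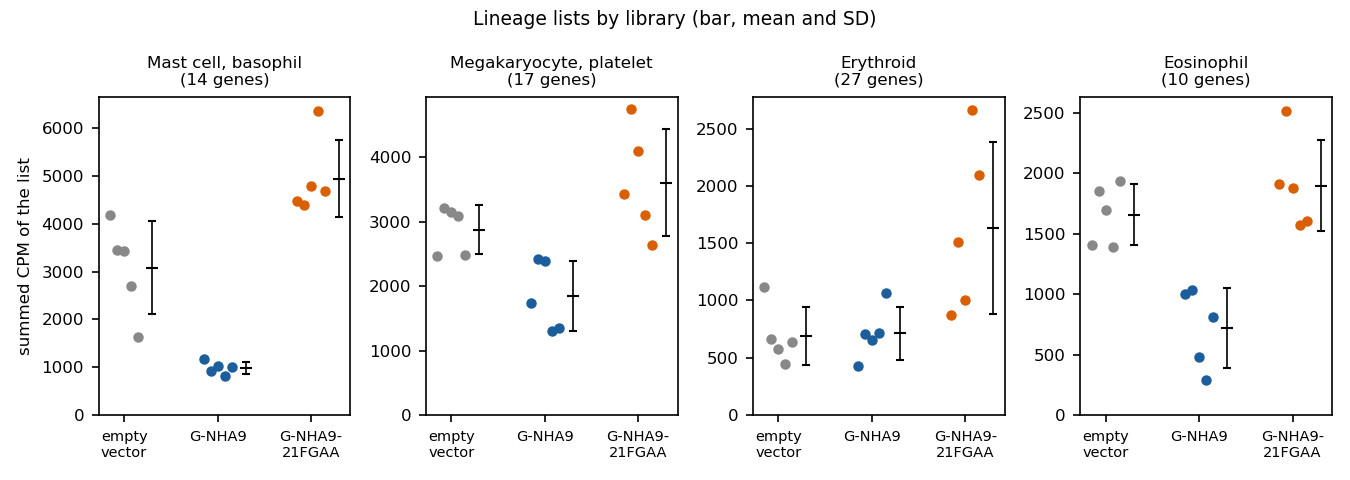
Summed CPM of the mast cell and basophil (14 genes), megakaryocyte and platelet (17), erythroid (27) and eosinophil (10) lists in each library of empty vector, G-NHA9 and G-NHA9-21FGAA cells, with the mean and SD beside the points. All G-NHA9-21FGAA libraries lie above all G-NHA9 libraries for mast cell, megakaryocyte and eosinophil genes, and the erythroid sums overlap.

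Granulocyte and monocyte genes were mixed. Of 7 primary granule genes of early granulocytes, 4 were lower and 1 higher by value with no overlap (5.13% and 6.38% of all genes), and 1 was called, *Prss57* (14.0 ± 3.74 CPM against 27.0 ± 7.37 CPM; edgeR adjusted p = 0.035), and not in 6 of the 10 fits that left out a library, those without replicate 1, 2 or 3 of G-NHA9 (edgeR adjusted p = 0.066, 0.14 and 0.064) or replicate 1, 4 or 5 of G-NHA9-21FGAA (0.062, 0.096 and 0.11). *Mpo* was at 373 ± 32.0 CPM against 264 ± 28.3 CPM, *Elane* at 163 ± 20.1 CPM against 282 ± 51.1 CPM and *Ctsg* at 228 ± 26.5 CPM against 385 ± 68.0 CPM. The libraries of the 2 constructs did not overlap for these 3 genes, which lie on opposite sides, and none was called in the fit over all 35 libraries (edgeR adjusted p = 0.44, 0.23 and 0.063). In the fit to the 10 libraries alone all 3 passed (edgeR adjusted p = 0.0054, 0.0021 and 0.0018), as they did after thinning to equal depth (0.0058, 0.0019 and 0.0018) and in a fit to the 10 libraries with the replicate number as a block, chosen after seeing the data (0.00155, 0.000405 and 0.000645). Of 23 late neutrophil genes, 4 rose and 2 fell (8.91% and 8.34% of all genes), and 2 rose without replicate 5 of G-NHA9. *Fpr1*, a chemoattractant receptor, rose (18.7 ± 4.59 CPM against 6.68 ± 2.13 CPM), *Mmp8*, the neutrophil collagenase, fell (646 ± 177 CPM against 1282 ± 388 CPM), and the calprotectin gene *S100a8* was at 3416 ± 781 CPM against 3412 ± 687 CPM.

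Of 24 macrophage and monocyte genes, 8 were lower (8.34% of all genes were) and 3 higher (8.91% of all genes). Complement genes were among the lower ones, with *C1qb* at 0.928 ± 0.449 CPM against 5.33 ± 1.48 CPM (log2 fold change, -2.52 ± 0.37) and *C1qc* at 0.720 ± 0.256 CPM against 4.86 ± 1.70 CPM (-2.75 ± 0.40). *Ccr2*, the receptor of inflammatory monocytes, was at 395, 323, 425, 205 and 167 CPM against 942, 944, 852, 677 and 505 CPM (-1.37 ± 0.23; edgeR adjusted p = 3.3e-05), lowest in replicates 4 and 5 of both constructs. *Adgre1*, which encodes F4/80, was at 449 ± 65.8 CPM against 636 ± 102 CPM. The scavenger receptor *Marco* went the other way, with 20.4 ± 9.63 CPM against 2.95 ± 1.43 CPM (2.79 ± 0.31). With the replicate number as a block 7 genes of the list were higher, and in the fit to the 10 libraries alone or after thinning to equal depth 1 was. Of 16 genes of MHC class II and dendritic cells, 4 fell (8.34% of all genes did). They included *H2-Ob*, a modulator of peptide loading (14.6 ± 3.28 CPM against 66.6 ± 14.6 CPM; -2.19 ± 0.20), and the invariant chain *Cd74* (390 ± 83.3 CPM against 628 ± 71.9 CPM). The class II chain *H2-Aa* was at 193 ± 44.4 CPM against 193 ± 43.4 CPM.

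Among 19 myeloid lineage transcription factors, 5 fell and 1 rose (8.34% and 8.91% of all genes), and 3 fell without replicate 5 of G-NHA9-21FGAA. *Cebpa*, a factor of granulocyte commitment, was at 85.7 ± 15.2 CPM against 130 ± 15.7 CPM (log2 fold change, -0.60 ± 0.11) and *Irf8*, a monocyte factor, at 52.2 ± 6.82 CPM against 75.6 ± 9.51 CPM (-0.53 ± 0.12). *Spi1*, which encodes PU.1, was at 156 ± 15.8 CPM against 165 ± 14.6 CPM (edgeR adjusted p = 0.56; 95% interval, -0.23 to 0.07).

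Genes of proliferation differed little. Of 52 DNA replication genes, 1 was called (*Dna2*, log2 fold change -0.46) and the median was 0.09, and of 43 mitotic genes none was called (median 0.12), against 17.2% of all genes. Of 36 nucleolar genes of ribosome assembly none was called either. Among 20 cyclins, CDKs and inhibitors of G1, 3 rose (8.91% of all genes did). Of these, *Cdkn2a*, the gene of p16 and p19ARF, was at 9.33 ± 1.15 CPM against 3.81 ± 0.483 CPM (1.29 ± 0.17; edgeR adjusted p = 5.2e-07) and *Rb1* at 136 ± 26.4 CPM against 95.9 ± 12.8 CPM. For *Cdkn2a* no G-NHA9-21FGAA library was below 7.69 CPM and no G-NHA9 library above 4.31 CPM.

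Of 79 cytosolic ribosomal protein genes, 49 were lower and none higher, against 8.34% and 8.91% of all genes. Their median log2 fold change was -0.38. The sums overlapped, with 40560 to 46500 CPM in G-NHA9-21FGAA libraries and 39720 to 66430 CPM in G-NHA9 libraries, so that the spread of G-NHA9 was wider. The number lower was 28, 18, 20 and 31 without replicates 1, 2, 3 and 4 of G-NHA9, 23 and 26 without replicates 1 and 5 of G-NHA9-21FGAA, and 72 without replicate 5 of G-NHA9. *Rps14* was at 541 ± 44.6 CPM against 765 ± 152 CPM, with overlapping groups. Of 78 mitochondrial ribosomal protein genes, 4 (5.13%) were lower, below the 8.34% of all genes. With the replicate number as a block 7 of them were lower, as were 1939 of all 17166 genes. When any of replicates 1 to 4 of G-NHA9 or replicates 1, 4 and 5 of G-NHA9-21FGAA was left out, 1 or 2 were lower. Of 18 genes of serine and one-carbon metabolism and ATF4 targets, 7 fell (8.34% of all genes did). Without replicate 2 of G-NHA9 3 fell, and without its replicate 3 4 fell. *Shmt2* was at 59.7 ± 10.0 CPM against 94.3 ± 10.3 CPM with no overlap. Of 26 glycolysis and lactate transport genes, 3 rose, 1 fell and 22 were not called, against 8.91% and 8.34% of all genes higher and lower. Their median log2 fold change was 0.115. With the replicate number as a block, or without replicate 5 of G-NHA9, 5 rose. In the main fit the glucose transporter *Slc2a3* rose from 157 ± 27.0 to 366 ± 32.0 CPM (1.22 ± 0.15; edgeR adjusted p = 2.1e-07).

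Further genes were taken by size of change and by smallest adjusted p. With the mean at 5 CPM or more and no overlap, the largest fall was that of *Crisp3*, a secreted cysteine-rich protein of granulocyte-type granules and glands. It was at 0.191, 0.0828, 0.215, 0.225 and 0.143 CPM in G-NHA9-21FGAA libraries and at 46.4, 46.4, 46.4, 31.5 and 31.9 CPM in G-NHA9 libraries (log2 fold change, -7.83 ± 0.64; edgeR adjusted p = 5.4e-11). *Lepr*, the leptin receptor, fell to 3.95 ± 2.22 CPM from 54.2 ± 8.23 CPM (-3.78), the matrix gene *Fbn1* to 1.37 ± 0.679 CPM from 14.2 ± 1.82 CPM (-3.38) and the actin regulator *Pfn2* to 1.22 ± 0.222 CPM from 11.3 ± 0.738 CPM. *Pfn2* had the smallest adjusted p of the genes that fell (-3.21 ± 0.15; edgeR adjusted p = 7.2e-17). The ATP-gated channel gene *P2rx3* was at 11.5, 3.52, 13.4, 0.606 and 0.621 CPM against 127, 109, 138, 47.9 and 22.4 CPM, low in replicates 4 and 5 of both constructs. Its annotation overlaps *Ssrp1* on the other strand.

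On the rising side, *Tph1*, the enzyme of serotonin synthesis that mast cells express, was at 362 ± 51.8 CPM against 36.6 ± 8.88 CPM (log2 fold change, 3.30 ± 0.31; edgeR adjusted p = 1.1e-09). *Maob*, a monoamine oxidase, was at 24.9 ± 3.09 CPM against 1.89 ± 0.454 CPM (3.72), and *Calca*, which encodes calcitonin and CGRP, at 21.4 ± 5.93 CPM against 2.20 ± 0.826 CPM (3.28). *Arhgap20*, a GTPase-activating protein, was at 9.86 ± 1.93 CPM against 0.700 ± 0.201 CPM (3.82), and *Atp8b5* at 27.6 ± 8.26 CPM against 2.80 ± 1.07 CPM (3.30). *Igfbp5*, an insulin-like growth factor binding protein, was at 35.4, 27.5, 30.2, 104 and 135 CPM against 2.81, 3.72, 3.28, 8.90 and 13.1 CPM, and replicates 4 and 5 were the highest of both constructs. The smallest adjusted p among genes that rose was that of *Ttc39b* (43.0 ± 5.45 CPM against 13.6 ± 1.90 CPM; 1.66 ± 0.10; edgeR adjusted p = 1.6e-14), followed by the phosphodiesterase *Pde1c* (2.78 ± 0.17), and *Tcaf1* (2.01 ± 0.14) was among the first 5.

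**Figure D5:**
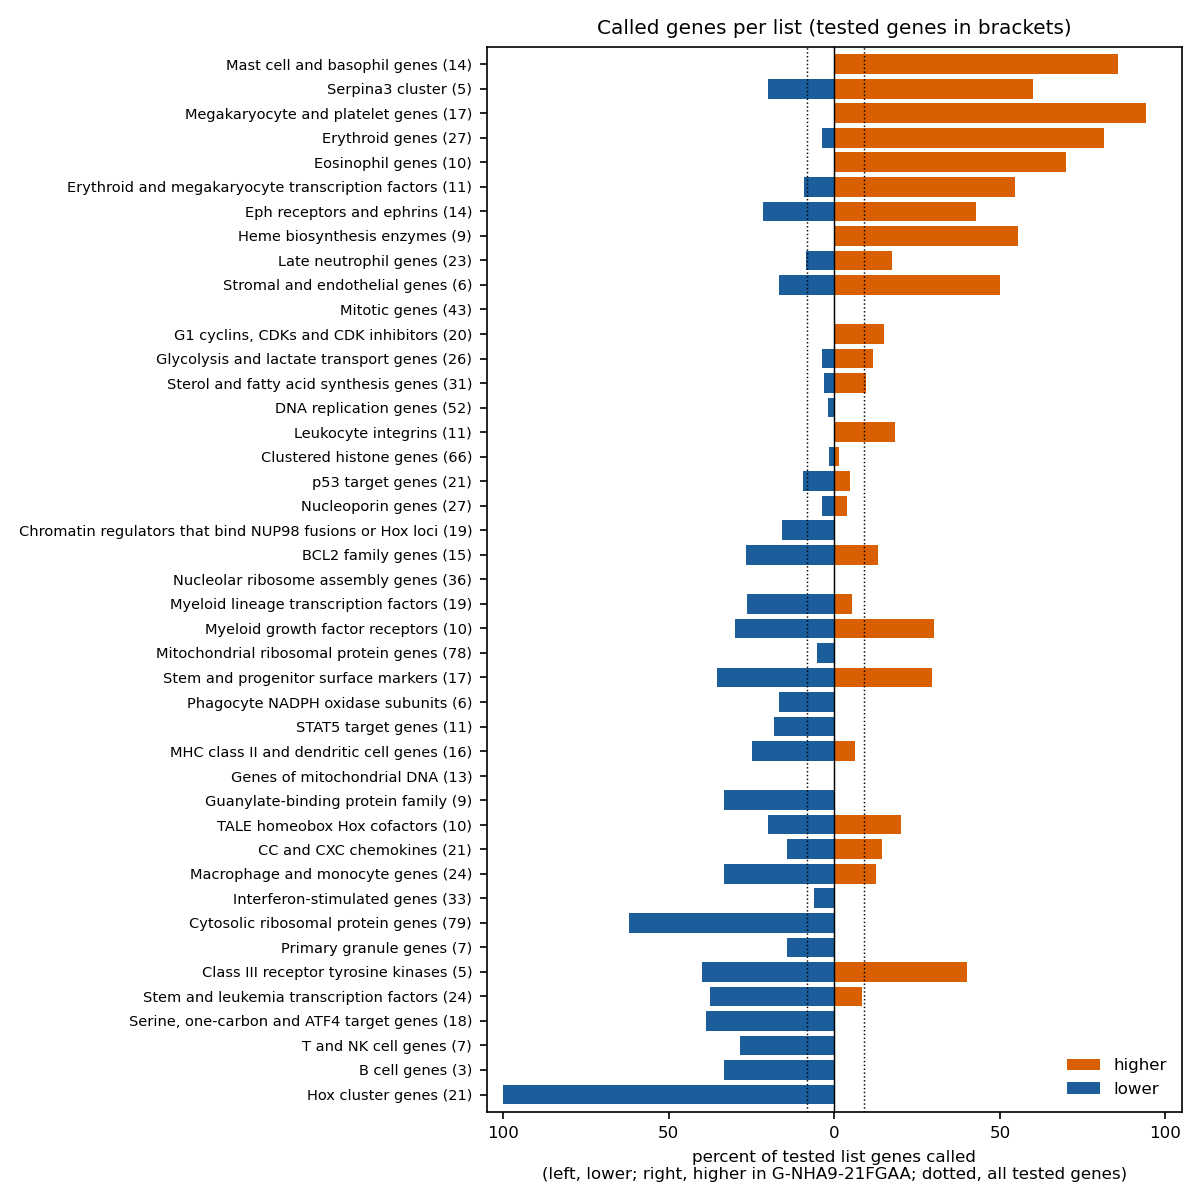
Percent of tested genes called lower (left) and higher (right) in G-NHA9-21FGAA cells for each gene list, ordered by median log2 fold change, with dotted lines at the 8.34% and 8.91% of all tested genes. All 21 *Hox* genes are lower, and mast cell, megakaryocyte, erythroid and eosinophil genes are mostly higher.

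Small families were mixed, and their counts stand against 8.91% of all genes called higher and 8.34% called lower. Of 14 tested Eph receptors and ephrins, 6 rose and 3 fell, and *Epha3* was at 11.0 ± 2.79 CPM against 2.63 ± 0.550 CPM and 0.239 CPM in empty vector cells (log2 fold change, 2.06 ± 0.33). Of 5 genes of the *Serpina3* cluster, 3 rose and 1 fell, with *Serpina3b* at 33.6 ± 5.05 CPM against 4.66 ± 1.63 CPM (2.85 ± 0.43). Of 9 guanylate-binding protein genes 3 fell, among them *Gbp5* (-1.05), and of 33 interferon-stimulated genes 2 fell. Of 19 chromatin regulators of *Hox* loci or NUP98 fusions, 3 fell, among them the CBX subunits of Polycomb repressive complex 1 *Cbx2* (3.75 ± 0.900 CPM against 6.39 ± 0.844 CPM) and *Cbx7* (6.24 ± 0.848 CPM against 10.3 ± 2.06 CPM). Of 27 nucleoporin genes, 1 rose and 1 fell, and of 13 genes of mitochondrial DNA and 66 histone genes, none and 2 were called. Of markers of other cells, 3 of 13 B cell and 7 of 12 T and NK cell genes passed the filter. So did 6 of 12 stromal and endothelial genes, and 17166 of all 49671 genes. The 3 lists summed to 16.64, 25.65 and 256.3 CPM in G-NHA9-21FGAA cells and to 34.66, 24.35 and 237.6 CPM in G-NHA9 cells. Of the B cell genes 1 fell, and of the T and NK cell genes 2 fell. Of the stromal and endothelial genes 3 rose, 1 without replicate 4 of G-NHA9-21FGAA, and 1 fell, *Lepr*. *Ighm*, the immunoglobulin μ chain, was at 16.0 ± 2.60 CPM against 34.0 ± 7.50 CPM (-1.09).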

How the data were processed

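RNA was sequenced from total RNA libraries, and the deposited table holds raw read counts per gene that the authors made; STAR 2.7.0d, HTSeq 0.11.2, DESeq2 and mm10 are named in the submitters' processing notes. Whether strand was used in counting is not given in the sources used here. CPM values, sums and tests were computed from these counts. In edgeR 4.0.16 (R 4.3.3), genes were kept by filterByExpr over the 7 conditions, scaled by TMM and tested with the quasi-likelihood test in 1 fit to all 35 libraries, with Benjamini-Hochberg adjustment over 17166 genes. Floors (3 counts, 0.0448 to 0.0866 CPM per library) and count intervals cover counting error only.

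The members and gene lists were chosen with earlier results of these data known. Named genes are list members, *Nup98*, *Hoxa9*, the 12 genes with the highest and the 12 with the lowest fold change (mean of at least 5 CPM, groups without overlap) and the 5 with the smallest adjusted p in each direction. Genes beside *Hox* clusters were added after their values were seen.

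Libraries with the same replicate number tended to deviate together (correlations of 0.189 to 0.568, against -0.345 to 0.350, mean -0.093, between other numbers). The 2 ranges overlapped. Deviations were taken from the mean of each construct, which tends to make the mean between other numbers negative when the same numbers correlate. That mean is therefore not an independent reference. The replicate number was used as a block in an alternative fit. On simulated counts, 89% of 100 genes changed by 2-fold and 100% of 100 changed by 4-fold were called, with 9 unchanged genes among 16836. Alternatives were other scalings, filters and library sets, thinned counts, DESeq2 1.42.0, a minimum fold change, a sex-linked covariate and leaving out each library. Of 49671 gene identifiers, 49326 were in GENCODE M21 (GRCm38), used for positions; promoters are from RefSeq (GRCm38.p6) and matched 10946 tested genes. Some genes of the lists are counted but not reported here by name.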

Additional observations from a re-analysis of the deposited data

Results flagged for a closer look

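Of 256 groups of 5 libraries examined for single libraries far from the rest (Dixon's test), 11 were marked, 4.3%, and chance marks about 1 in 20. In G-NHA9-21FGAA cells these were *Cd27* in replicate 5 (0.740 CPM, next 0.313), *Hoxa2* in replicate 1 (0.638 CPM, next 0.274), *Hoxb8* in replicate 2 (0.0207 CPM, the others at 0) and *Hoxc8* in replicate 1 (0.0851 CPM, the others at 0). In G-NHA9 cells, replicate 5 was highest for *Hoxb8* (6.42 CPM, next 3.19), *Slc4a1* (36.8 CPM, next 13.1) and *Trim10* (2.19 CPM, next 0.614), and lowest for *H2-Ob* (41.1 CPM, next 68.0) and *Sox4* (8.66 CPM, next 15). *Eya1* was highest in replicate 1 (45.0 CPM, next 32.0), and *Tpsb2* was lowest in replicate 2 (29.1 CPM, next 35.5).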

How the results depend on the processing

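Among the 132 genes examined singly, no called value changed direction under any alternative. Of all 2960 called genes, 2034 stayed called in the same direction in the fit to the 10 libraries alone and 1986 after thinning to equal depth. The direction of the rest was not examined. Of the named genes that were not called, *Nup98* (-0.12 to 0.04), *Pbx2* (-0.12 to 0.04), *H2-Aa* (-0.09 to 0.12) and *S100a8* (-0.08 to 0.15) changed sign when single libraries were left out, and the median log2 fold change of all genes lay between -0.02 and 0.01 over all settings. With a minimum log2 fold change of 1, 453 genes were called, 267 of them higher and 186 lower, with 2 erythroid, 2 eosinophil, 3 megakaryocyte and 0 ribosomal protein genes. In a fit to the 10 libraries alone, 935 genes were lower, of which 19 ribosomal protein genes, and after thinning to equal depth 926 and 22. Without a filter 26 ribosomal protein genes were lower. With the replicate number as a block, 3936 genes were called, including 2959 of the 2960, and apart from the results given above no named call was lost. Fits that left out 1 library called 2449 to 3056 genes, 1349 to 1608 of them higher and 1074 to 1448 lower. In these fits 20 to 21 *Hox*, 12 to 13 mast cell, 16 to 17 megakaryocyte, 13 to 23 erythroid, 6 to 8 eosinophil and 18 to 72 ribosomal protein genes were called. DESeq2 called 3188 genes. The causes were not tested. Genes near the floor, such as *Hoxb8* and *Hoxc4* in G-NHA9-21FGAA cells, are limited by depth.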

Other observations

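Among 1167 tested processed pseudogenes, 8 were higher and 76 (6.51%) lower, whereas of 13371 protein-coding genes 1384 (10.4%) were higher and 1236 (9.24%) lower. Of the 76, 23 carry names of ribosomal protein genes, from which their reads may not be separable.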
